A study of Gallus gallus with 21 samples.

Results

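The genes described here lie on the Z chromosome of the chicken from 60 Mb to its end, and 122 of 351 annotated genes in that stretch entered the description. A gene entered when its first annotated exon record was on Z, its smallest start was 60000000 or more on the GRCg6a assembly, and its mean over 21 libraries was at least 1 CPM (counts scaled to a common library total). The whole table listed 24356 genes, 1245 of them on Z. In the remainder of the stretch, 115 genes had no count in any library and 114 had counts but a mean under 1 CPM. The libraries are RNA sequencing of the trunk neural tube of chick embryos, 9 controls (CTRL, genotype WT) and 12 with a CRISPR/Cas9 knock-out of MOXD1 (KO). MOXD1 encodes a relative of dopamine beta-hydroxylase, and its own level is not analysed here. Constructs were put into 1 side of the neural tube by electroporation in ovo, so edited cells may be mixed with unedited ones in any library. The construct given to the controls is not given in the sources used here. The strain of the embryos and the stage at which tissue was taken are not given in the labels.

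In birds, males carry a pair of Z chromosomes and females carry a single Z and a W. Birds have no known silencing of a whole sex chromosome of the kind seen in female mammals, and in chickens Z genes are raised in the female, or not, gene by gene and locally. Many Z genes are therefore expressed at a higher level in male than in female chickens, while others are near parity, and a few loci, of which the male hypermethylated region on Z is the best known, are expressed more in females.

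The labels give no sex. Libraries were instead set apart by the share of their counts that fell on W genes, with a boundary of 0.1%. The share was 0.00202% to 0.00455% in 6 libraries, called low-W here, and 0.180% to 0.239% in the other 15. The low-W libraries were CTRL replicate 9 and KO replicates 1, 3, 5, 9 and 10, and the other 15 were 8 CTRL and 7 KO libraries. These are sets made from the data and not groups of the study. For each gene the mean CPM of the 6 low-W libraries was divided by the mean CPM of the 15 others, and this ratio is the quantity described. In bulk tissue, a different number of cells that express a gene and a different level per cell cannot be told apart.

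Total counts were 16346238 to 20970382 in the low-W libraries and 16164404 to 21133788 in the others, so depth was similar. Mitochondrial transcripts made up 6.72% to 11.1% of counts in the low-W and 6.68% to 14.3% in the other libraries. CTRL replicate 1 or KO replicate 8, both among the 15, was the lowest or the highest of the 15 for 63 of the 122 members. The share over all genes was not taken, so this count is not read as a trait of the members. The files give IDs without symbols, and 0 of 24356 IDs matched a RefSeq gene list of another assembly. Members are therefore named by ID only for the 4 that a rule picked and by position elsewhere, what they encode is not stated, and markers of the neural tube could not be looked up.

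In the 6 low-W libraries the stretch as a whole was more abundant, at a level between parity and a doubling. The 122 members together took 0.686%, 0.689%, 0.703%, 0.723%, 0.729% and 0.774% of the counts of the low-W libraries. In the 15 others they took 0.407% at the lowest, 0.492% at the median and 0.532% at the highest. The 2 sets of libraries did not overlap. When each member was set against its own median over the 15 libraries, the median member stood at 1.45 to 1.58 times that reference in the low-W libraries and at 0.873 to 1.14 times in the others. Between 93 and 112 of the 122 members were above their reference in a low-W library. In the 15 others the number ran from 30 to 80. Since the reference is the median of those 15, their numbers centre near the middle by construction. The shares over all genes were not taken for these counts. The median of autosomal genes on the same scale lay between -0.088 and -0.0049 (log2) in the low-W libraries and between -0.051 and 0.11 in the others. Among the 15, CTRL replicate 4 had the lowest member median, 0.873 times, and KO replicate 8 the highest, 1.14 times.

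**Figure D1:**
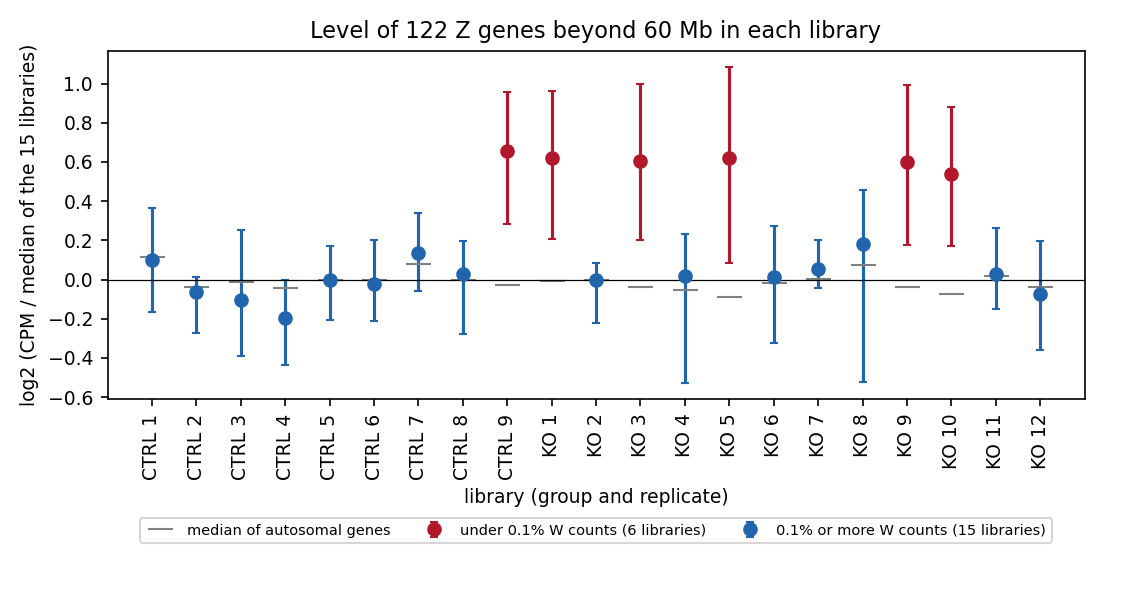
Level of the 122 members in each library. Points are the median over members of log2 CPM relative to the median of the 15 libraries with W counts, bars run from the lower to the upper quartile over members, and grey dashes mark the median of autosomal genes. The 6 low-W libraries lie between 0.54 and 0.66, above the highest of the 15 others at 0.18.

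The ratio differed widely from gene to gene. Its median over the 122 members was 1.53, the quartiles were 1.2 and 1.82, and the extremes were 0.620 and 3.64. Ratios under 1 were found for 11 members, and ratios of 2 or more for 14. Those 14 members included many rare transcripts, 8 of them with a mean under 5 CPM. Of the 11 members under 1, 7 had a mean under 10 CPM. Among the 85 members with a mean of at least 10 CPM, the ratio ran only from 0.832 to 2.17. A mean of at least 1 CPM can be reached through the low-W libraries alone, and 4 members had a mean under 1 CPM in the 15 others, while 0 had one in the low-W set.

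The test used was edgeR's quasi-likelihood F test over 14205 genes with the labelled group as a second term, with Benjamini-Hochberg adjustment over all of them. At an adjusted p under 0.05, 49 of the 122 members were higher in the low-W libraries, where 1.41% of all genes tested were called higher. That share includes the members and other Z genes, and of the autosomal or scaffold genes 1 of 12357 (0.0081%) was called higher. None was called lower (0 of 122), where 0.275% of all genes tested were, and DESeq2 also called 0 lower. Of the 39 genes called lower, 34 were W genes, whose counts had set the libraries apart, and without W genes the share was 0.0353% (5 of 14162), so nothing is read from the 0 among members. At an unadjusted p under 0.05, 82 of the 122 members were higher, where 3.19% of all genes tested were. At that level 1 member was lower, where 1.77% of all genes tested were, or 1.5% without W genes. DESeq2 also listed 1 lower member. The median log2 change of the members was 0.61, against -0.039 over all genes tested. The 49 called members had fitted folds of 1.41 to 3.88. Of the members with a ratio of 1.5 or more, 41 were called and 21 were not. All members had passed the filter on low counts of that fit, and the median standard error of their log2 change was 0.19, with a range from 0.090 to 1.26.

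Against the pair of reference values 1 and 2, the 95% intervals of the fitted folds fell into several classes. The interval lay wholly between 1 and 2 for 22 members. For 60 it lay above 1 and reached 2 or more, and for 27 it contained 1 and ended under 2. It contained both values for 12 members, whose data do not place them. It ended under 1 for 1 member and began above 2 for 0. These intervals are not adjusted for the number of members. The shares over all genes were not taken, so the sizes of the classes are not read as a trait of the members.

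For 16 members every low-W library was above every one of the 15 others, which was so for 0.661% of genes expressed at 1 CPM or more. Among members the share was 13.1%, and among autosomal or scaffold genes 0%. For Z genes at 0 to 25, 25 to 35 and 35 to 60 Mb it was 18.1%, 6.56% and 14.5%. The reverse, every low-W library below, was found for 0 members, against 0.261% of genes. W genes made up 31 of those 34 genes, and without W genes the share was 0.0231%. The 16 had ratios of 1.43 to 3.64, and each was also called by edgeR. The gene on the minus strand at 63940607 to 63946893 showed the widest separation for its spread. Its level ran from 33.0 CPM through a median of 35 to 41.4 CPM in the low-W libraries and from 15.2 CPM through 18.2 to 21.7 CPM in the others. No library of one set reached the range of the other. The ratio was 2.00, the log2 change 0.98 (SE 0.090, edgeR adjusted p = 1.81e-07), and it was chosen here for its small p after the values were seen. All 6 low-W libraries were above the median of the others for 70 of the 122 members, and at least 5 of 6 for 92. The shares over all genes were not taken for these counts, so nothing is read from them.

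The 2 members with the highest ratio among those with a mean of at least 10 CPM were close to a doubling. ENSGALG00000026757, on the plus strand of Z at 64257247 to 64273299 with 6 exon records, ran from 72.7 CPM through a median of 115 to 155 CPM in the low-W libraries. In the 15 others it ran from 29.5 CPM through 51.7 to 88.5 CPM, so the ranges overlapped at their ends. Means were 112 CPM ± 29.8 (SD, n = 6) and 51.7 CPM ± 15.2 (SD, n = 15), a ratio of 2.17 and a log2 change of 1.04 (SE 0.20, edgeR adjusted p = 0.00405). ENSGALG00000005346, on the minus strand at 81573781 to 81579815 with 5 exon records, ran from 53.5 CPM through 69.6 to 86.7 CPM in the low-W libraries and from 11.4 CPM through 34.3 to 53.2 CPM in the others. These ranges met without overlap. The ratio was 2.10 and the log2 change 1.04 (SE 0.24, edgeR adjusted p = 0.0204). The edgeR adjusted p was above the threshold without CTRL replicate 9 (0.0925), without KO replicate 5 (0.0736) and with KO libraries only (0.174). In that order the log2 change stayed at 1.07, 0.98 and 1.07. Over all 15 alternatives the adjusted p ran from 0.00327 to 0.174.

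The 2 members with the lowest ratio at that level of expression were near parity, and neither passed the test. ENSGALG00000015656, on the plus strand at 65797112 to 66041637 with 55 exon records, ran from 17.3 CPM through 27.5 to 36.7 CPM in the low-W libraries. In the others it ran from 19.5 CPM through 30.5 to 63.5 CPM, with KO replicate 8 the highest. Its ratio was 0.832, or 0.954 without CTRL replicate 1 and KO replicate 8, and its log2 change was -0.22 (SE 0.22, edgeR adjusted p = 0.996, 0.919 to 1.00 over the alternatives). ENSGALG00000002529, on the plus strand at 73305265 to 73341429, has 17 exon records and stood at 30.7 CPM ± 3.82 (SD, n = 6) and 34.3 CPM ± 6.75 (SD, n = 15). Its ratio was 0.897 and its log2 change -0.085 (SE 0.13, edgeR adjusted p = 0.996). The 95% interval of its fold, 0.786 to 1.13, left out a doubling.

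For some abundant members the interval of the fitted fold contained parity and ended well below a doubling. Of the 85 members at 10 CPM or more, 11 had an interval that contained 1 and ended under 1.5. An upper end near 1.5 still leaves room for a rise close to the median fitted fold of all members, 1.53. The share over all genes was not taken for this count. No limit was set on the lower end, and ENSGALG00000015656, with an interval of 0.621 to 1.18, is among them. Such an interval does not by itself show equal levels. The 2 genes given next were picked for their narrow intervals. The gene on the minus strand at 70810178 to 70821962 had 134 CPM ± 15.3 (SD, n = 6) in the low-W libraries and 134 CPM ± 19.9 (SD, n = 15) in the others, with an interval of 0.867 to 1.15. On the plus strand, the gene at 71167702 to 71204524 had 100.9 CPM ± 8.36 (SD, n = 6) and 100.2 CPM ± 17.3 (SD, n = 15), with an interval of 0.839 to 1.18. The sets overlapped throughout for both genes. Of these 11, 5 lay between 73 and 74 Mb, a run described further on.

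**Figure D2:**
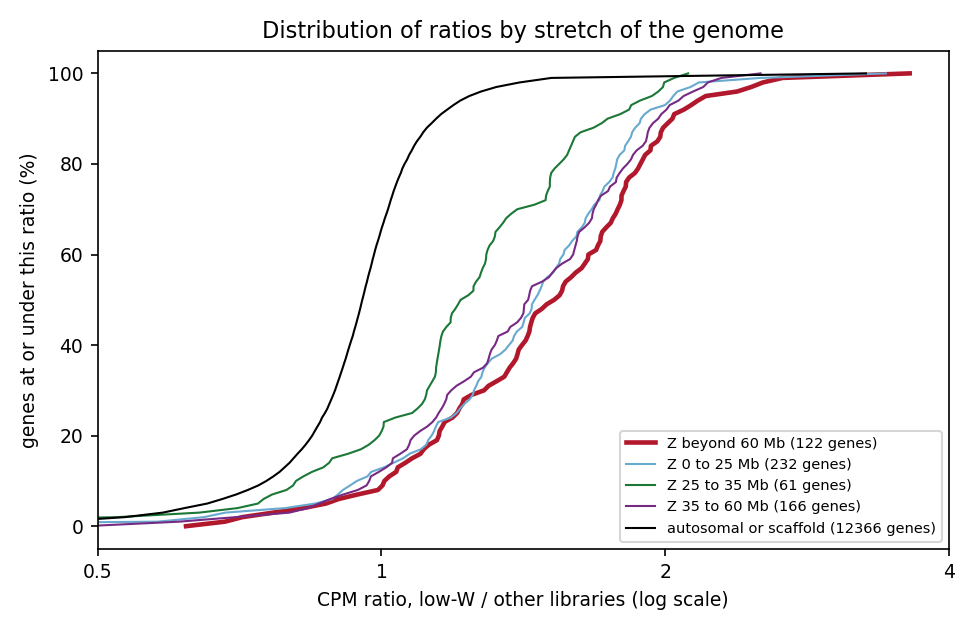
Distribution of the ratio of low-W to other libraries over genes expressed at 1 CPM or more. Each line gives the percentage of genes at or under the ratio on the log-scaled horizontal axis, for the 122 members (thick), 3 other stretches of Z and autosomal or scaffold genes. The members cross 50% at 1.53 and the autosomal genes at 0.954.

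Other stretches of Z were also raised in the low-W libraries. The median ratio was 1.45 for the 232 Z genes under 25 Mb, 1.21 for the 61 genes from 25 to 35 Mb and 1.43 for the 166 genes from 35 to 60 Mb. For 12366 autosomal or scaffold genes it was 0.954, with quartiles of 0.871 and 1.03. Ratios above 2 were found for 11.5% of the members, 7.33%, 1.64% and 9.04% of the 3 other stretches in order of position, and 0.121% of the autosomal genes. Ratios under 1 were found for 9.02% of the members, 12.9%, 21.3% and 12.7% of the other stretches, and 65.7% of the autosomal genes. The ratios were not recentred on the autosomal median of 0.954, so these shares depend on the scale. Calls of a higher level by edgeR took 40.2% of the members, 37.9%, 18% and 30.1% of the other stretches, and 0.0081% of the autosomal genes. The differences between the stretches were not tested.

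The boundaries of the choice fell among genes with mixed ratios. The nearest genes below 60 Mb that reached a mean of 1 CPM, starting at 59920983 and 59940610, had ratios of 1.60 and 1.82. The nearest inside, starting at 60476018 and 60517700, had ratios of 2.48 and 1.03. At the boundary of 1 CPM, the 2 genes just inside had means of 1.03 and 1.06 CPM and ratios of 2.46 and 1.04, and those just outside had means of 0.985 and 0.946 CPM and ratios of 1.13 and 0.883.

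Expression level did not order the ratios. The mean over all libraries ran from 1.03 to 605 CPM over the members, with a median of 20.1 CPM. Across the 122 genes, log2 ratio and mean CPM had a Spearman rho of -0.015 and a Pearson r of -0.015 with log10 CPM. Genes share libraries and are not independent replicates, so these are descriptions. In 5 groups of rising expression, the median ratio was 1.55, 1.65, 1.44, 1.62 and 1.43. The spread did change. In the lowest group, from 1.03 to 5.56 CPM, the quartiles were 1.04 and 2.21, with 9 of 25 members above 2 and 5 under 1. That group holds the 4 members with a mean under 1 CPM in the 15 others. These passed the minimum of 1 CPM only through the low-W libraries, so the choice itself favours high ratios there. In the middle group, from 15.2 to 26.4 CPM, they were 1.33 and 1.60, with 0 of 24 above 2 or under 1. In the highest group, from 66.6 to 605 CPM, they were 1.19 and 1.86. The median standard error of the log2 change was 0.37 in the lowest group and 0.15 in the highest, and 5 of 25 and 12 of 25 members were called.

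**Figure D3:**
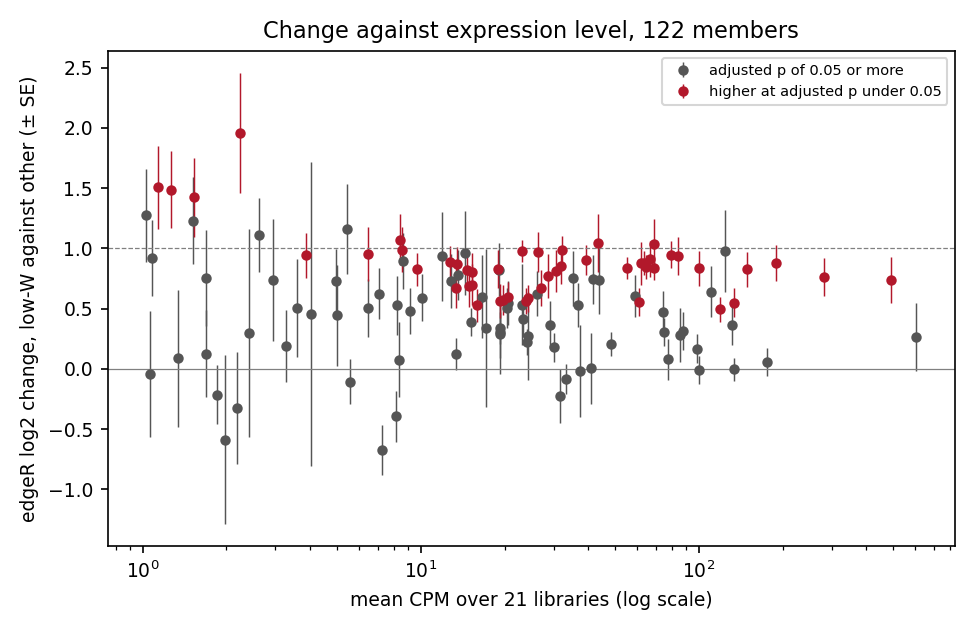
Log2 change of each member between low-W and other libraries, from edgeR with its standard error, against its mean CPM on a log axis. Lines mark 0 (parity) and 1 (a doubling). The standard error falls from a median of 0.37 in the lowest of 5 expression groups to 0.15 in the highest, and near-parity and near-doubling members occur at every level.

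The 5 members with the most counts had ratios from 1.04 to 1.93. Most counts fell on the gene on the minus strand at 62855240 to 62961099, a mean of 605 CPM over 12300 exon bases. It ran from 402 CPM through 539 to 1143 CPM in the low-W libraries and from 254 CPM through 581 to 1010 CPM in the others, and did not pass the test (log2 change 0.26, SE 0.28, edgeR adjusted p = 0.996). A gene on the plus strand at 63563409 to 63565254, with 635 exon bases, had the highest level per length, 770 CPM per kb. It ran from 417 CPM through 770 to 879 CPM and from 297 CPM through 385 to 657 CPM, a ratio of 1.66 that passed (log2 change 0.74, SE 0.19, edgeR adjusted p = 0.0475). Its call is close to the threshold, and within CTRL the ratio of replicate 9 to the other 8 was 0.964. A gene on the minus strand at 66668700 to 66692579 had a ratio of 1.71 (edgeR adjusted p = 0.00705). Near it, the minus-strand gene at 66723956 to 66729464 had 288 CPM ± 77.4 (SD, n = 6) and 149 CPM ± 27.1 (SD, n = 15), a ratio of 1.93 (edgeR adjusted p = 0.00111). The last, on the minus strand at 70943793 to 70975777, had a ratio of 1.04 with an interval of 0.883 to 1.23.

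Gene structure was loosely related to the ratio. Log2 ratio had a Spearman rho of -0.28 with exon length, -0.23 with the span of the gene and -0.16 with the number of exon records over the 122 members. The median ratio was 1.44 for 57 genes on the plus strand (quartiles 1.15 and 1.80) and 1.59 for 65 on the minus strand (quartiles 1.24 and 1.83). It was 1.49 for 24 genes with 2 to 5 exon records and 1.55 for 95 with more. Another annotated gene overlapped 26 members, on the same strand for 12, and reads that overlapping genes share on a strand were left out of these counts. The 96 members without overlap had a median ratio of 1.56.

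Neighbouring genes could differ as much as distant ones. For 89 pairs of adjacent members less than 50 kb apart, the median absolute difference in log2 ratio was 0.38, and over all 7381 pairs of members it was 0.41. A group near 71 Mb, chosen after the values were seen, holds ratios near 2 and near 1 side by side. The gene on the plus strand at 70935594 to 70942308 had 131 CPM ± 31.5 (SD, n = 6) in the low-W libraries and 65.8 CPM ± 14.9 (SD, n = 15) in the others, a ratio of 1.98. A gene of 72 bases inside it on the same strand, at 70937421 to 70937492, had 6.04 CPM ± 1.37 (SD, n = 6) and 2.99 CPM ± 0.670 (SD, n = 15), a ratio of 2.02. The next gene, on the opposite strand at 70943793 to 70975777, had 181 CPM ± 22.4 (SD, n = 6) and 174 CPM ± 28.2 (SD, n = 15), a ratio of 1.04. Both genes of the nested pair passed the test (edgeR adjusted p = 6.84e-04 and 0.00432), and the third did not (0.996). Since the pair lies nested on the same strand, the counts of the 72-base gene may not be a separate signal, which was not tested.

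In windows of 2 Mb the median ratio lay between 1.48 and 1.80 in each window with at least 7 members but 1. From 60 to 62 Mb it was 1.80 over 7 members, from 62 to 64 Mb 1.66 over 11, from 64 to 66 Mb 1.71 over 17 and from 66 to 68 Mb 1.48 over 20. From 68 to 70 Mb it was 1.57 over 8, from 70 to 72 Mb 1.58 over 20, from 78 to 80 Mb 1.48 over 8 and from 80 to 82 Mb 1.59 over 17. The window from 72 to 74 Mb had a median of 1.15 over 13 members. From 74 to 78 Mb there was no member, although 53 genes are annotated there. Of these 53, 30 had no count in any library, and the highest mean was 0.114 CPM.

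**Figure D4:**
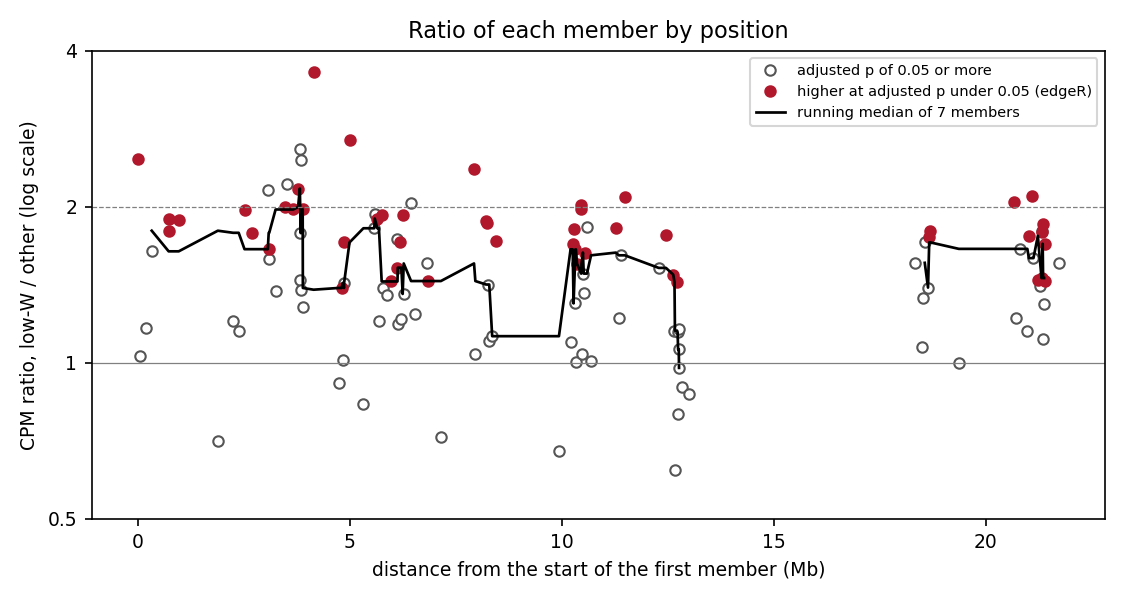
Ratio of low-W to other libraries for each member (log axis) against its distance from the start of the first member. Filled points passed edgeR at an adjusted p under 0.05, and the line is the running median of 7 neighbouring members. The line falls to near 1 just before the empty interval in which the 53 annotated genes had at most 0.114 CPM.

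The low window rested on 11 members that start between 73 and 74 Mb, from 73107483 to 73543841. Their median ratio was 1.06, where the other 111 members had 1.59. The run was chosen after the values were seen and has no test. Ratios under 1.2 were found for 9 of these 11 and for 21 of the 111 others, and ratios under 1 for 5 and 6. The interval of the fold ended under 2 for each of the 11, whose means ran from 1.85 to 119 CPM. Over all 122 members, these 11 included, the interval lay wholly between 1 and 2 for 22. It contained 1 and ended under 2 for 27, and ended under 1 for 1. In the individual libraries, the median of these 11 members stood at 0.943 to 1.29 times the reference in the low-W set and at 0.804 to 1.23 times in the others, ranges that overlapped in part.

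The member with the lowest ratio of all lay in this run, on the plus strand at 73146956 to 73156876 with 5 exon records. Its level ran from 3.48 CPM through 5.05 to 6.37 CPM in the low-W libraries and from 4.81 CPM through 7.31 to 12.1 CPM in the others. Every low-W library was below the median of the others, though the ranges overlapped. The ratio was 0.620 and the log2 change -0.68 (SE 0.21), with an interval of 0.465 to 0.843. It did not pass the test (edgeR adjusted p = 0.170). A second gene of the run, on the plus strand at 73210019 to 73217415, had 6.89 CPM ± 1.72 (SD, n = 6) and 8.65 CPM ± 2.88 (SD, n = 15), a ratio of 0.796 (edgeR adjusted p = 0.996).

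Between those genes lay a raised member. The gene on the plus strand at 73196838 to 73203671 ran from 138 CPM through 151 to 169 CPM in the low-W libraries and from 77.9 CPM through 109 to 127 CPM in the others, without overlap. Its ratio was 1.43 and its log2 change 0.49 (SE 0.11, edgeR adjusted p = 0.00955). The first gene of the run, on the minus strand at 73107483 to 73136810, was also called, with 79.4 CPM ± 11.9 (SD, n = 6) and 53.7 CPM ± 8.32 (SD, n = 15), a ratio of 1.48 (edgeR adjusted p = 0.00995). The intervals of both folds ended under 2, at 1.64 and 1.74. The 7 further genes of the run had ratios of 0.872 to 1.16 and were not called.

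**Figure D5:**
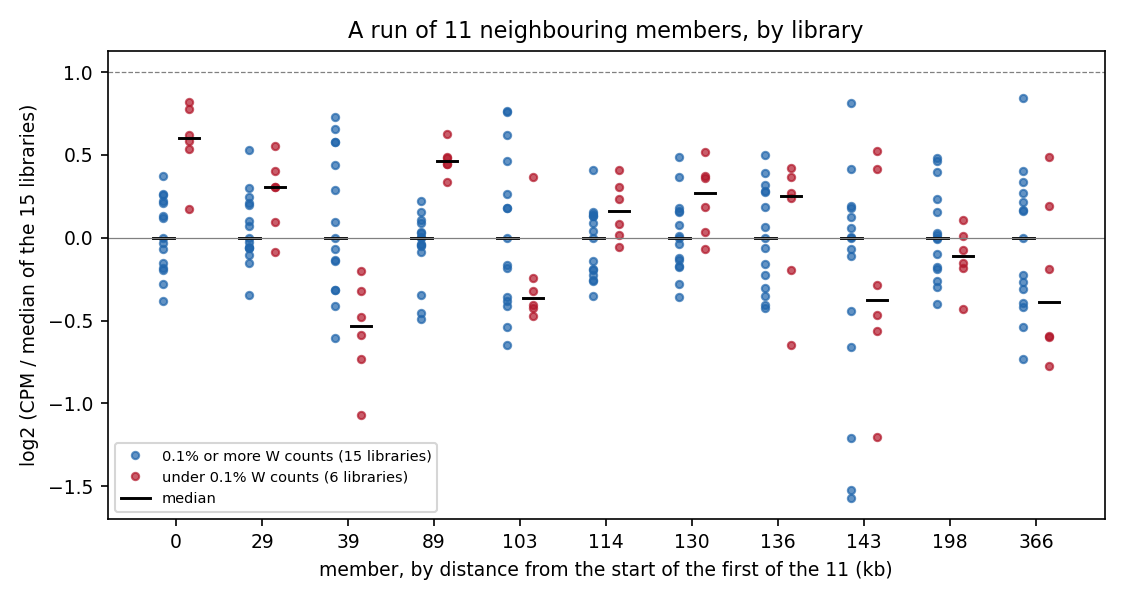
Level of the 11 neighbouring members in each library, as log2 CPM relative to the median of the 15 libraries with W counts, by distance from the start of the first. Points are libraries and black bars medians, with lines at 0 and 1 (a doubling). The low-W points separate from the others without overlap for 1 member (the fourth), and lie all below the median of the others for 1 (the third).

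The sets of libraries within each labelled group share no library, so the gene-by-gene ratio could be taken in each. Within KO (5 low-W against 7) the median ratio over members was 1.5, and within CTRL (1 against 8) it was also 1.5. Over the 121 members with a ratio in both, the log2 ratios had a Pearson r of 0.47 and a Spearman rho of 0.40. Over the 85 members with a mean of at least 10 CPM these were 0.25 and 0.24, and over 8917 autosomal genes at that level 0.0087 and -0.082. The ratio within CTRL rests on 1 low-W library, and genes are not replicates. For the 11 members between 73 and 74 Mb the median ratio was 1.00 within CTRL and 1.11 within KO, against 1.61 and 1.61 for the 111 others. The lowest member was at 0.819 and 0.560, and the raised one at 73196838 at 1.68 and 1.32. The run and these members were picked from the ratio over both groups together, so the values within each group are no separate support for them.

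Some members varied so much among the 15 libraries that their ratio says little. The single-exon gene on the minus strand at 70410679 to 70412769 ran from 0.00 to 35.5 CPM in the 15, with CTRL replicate 7 highest, and from 0.00 to 8.97 CPM in the low-W libraries. Its ratio of mean CPM was 0.676, while its fitted log2 change was 0.45 (SE 1.26), so that even the direction depends on the summary. CTRL replicate 1 or KO replicate 8 was the lowest of the 15 for 20 members and the highest for 44, counts without a share over all genes beside them. Without both libraries the median ratio was still 1.53. The ratio moved most for 5 members. For the gene starting at 60668176 it went from 1.17 to 2.29, and for that at 67625314 from 0.719 to 1.18. For the gene at 79844243 it went from 0.998 to 1.32, at 62363362 from 0.706 to 0.970 and at 70684899 from 1.10 to 1.47.

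The comparison of the study's own groups asked whether members differ when MOXD1 is targeted. At an adjusted p under 0.05, 0 of 122 members differed between KO and CTRL by edgeR, as did 0% of the 13809 genes tested, and the smallest adjusted p of a member was 0.704. DESeq2 also called 0. At an unadjusted p under 0.05, edgeR listed 18 of 122 members higher, where 356 of 13809 genes tested (2.58%) were. It listed 0 members lower, where 621 of the genes tested (4.50%) were, and DESeq2 listed 23 members higher. The median log2 change of the members was 0.20, against -0.016 over all genes. Without CTRL replicate 9, the low-W control, 39 members were higher at that level and the median was 0.32, against -0.012 over all genes. Without CTRL replicate 6 the count was 11. The shares over all genes were not taken for these counts or for that of DESeq2, so nothing is read from them. The share of counts on the members was 0.510% ± 0.0896 (SD, n = 9) among CTRL and 0.586% ± 0.117 (SD, n = 12) among KO libraries. Low-W libraries were 1 of 9 CTRL and 5 of 12 KO. Of the 18 genes, 15 were among the 49 of 122 members called higher in low-W libraries. Both lists come from the same libraries and are not independent, so nothing is read from the overlap.

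With the W class as a second term, 2 members were higher at an unadjusted p under 0.05 by edgeR, where 1.91% of all genes tested were. Lower members numbered 0, where 2.48% of all genes tested were lower. The smallest adjusted p of a member was 0.932, and the median log2 change of the members was 0.030. The 2 higher members were the gene on the minus strand starting at 64365002, with a log2 change of 0.39 (edgeR p = 0.0310), and the one starting at 81832191, with 0.21 (edgeR p = 0.0336). In the 15 libraries with W counts alone, 8 CTRL and 7 KO, 1 member was higher (1.83% of all genes) and 2 were lower (3.93%), with a smallest adjusted p of 0.848. Their share of counts there was 0.483% ± 0.0382 (SD, n = 8) and 0.493% ± 0.0174 (SD, n = 7). With the W class in the model the interval of the KO change lay inside 2-fold either way for 105 of the 122 members and inside 1.5-fold for 79. The shares over all genes were not taken for these counts, so they are not read as a trait of the members. ENSGALG00000026757 stood at 48.7 CPM ± 14.5 (SD, n = 8) in CTRL and 55.1 CPM ± 16.5 (SD, n = 7) in KO libraries with W counts, and ENSGALG00000005346 at 32.6 CPM ± 8.73 (SD, n = 8) and 33.7 CPM ± 13.4 (SD, n = 7), differences smaller than the spread between libraries.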

How the data were processed

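The authors' deposited counts are raw fragments per gene in 21 libraries, made with featureCounts 2.0.1 over exons of the Ensembl release 101 annotation of GRCg6a, per the file headers, with read pairs on the reverse strand and no option for multi-mapping or multi-overlapping reads. STAR and DESeq2 are also named in the submitters' processing notes, without versions or settings. The labels' protocols give an input of 50 ng RNA, a stranded mRNA kit and 14 PCR cycles. No molecular identifiers are named. No column of values was left unused (0).

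CPM values are counts over the column total. Folds were fitted with edgeR 4.0.16 (R 4.3.3, filterByExpr, TMM factors, quasi-likelihood F test, 2-sided, threshold 0.05). The low-W fit had group as a second term. Standard errors were derived from the coefficient and its F value. DESeq2 1.42.0 was an alternative. The edgeR fits were tested on simulated data. Libraries of one group never agreed within sampling noise (lowest chi-square per degree of freedom 29.2 over 102 pairs). Each sample is an embryo per the series design, and its sex, batch and litter are not given.

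The members, the 0.1% boundary and the lists were chosen with earlier results of these data known. Named by ID are the 2 members with the highest and the 2 with the lowest ratio among those with a mean of at least 10 CPM. Planned lists of cell type markers needed gene symbols and were not run.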

Additional observations from a re-analysis of the deposited data

Results flagged for a closer look

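Values by library were examined within CTRL (9) and within the low-W libraries (6), 26 sets in all. Of these, 3 had a single library far from the others. Chance gives about 1 in 20, and the sets were not independent. In CTRL replicate 9, the low-W library of that group, the members took 0.729% of the counts, against 0.407% to 0.532% in the other 8 controls. The median log2 level of the members there was 0.66, against -0.20 to 0.14 in the other 8. Both flags on CTRL replicate 9 restate the difference between low-W and other libraries given above, so the chance rate does not bear on them. In CTRL replicate 3 the gene on the plus strand of Z at 63563409 to 63565254 stood at 657 CPM, against 306 to 472 CPM in the other 8 controls. That gene was among those called higher in low-W libraries, with an adjusted p of 0.0475.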

How the results depend on the processing

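The median log2 change of members between low-W and other libraries stayed at 0.60 to 0.65 over 15 alternatives, and 0 members were called lower in any. The count called higher was 25 with KO libraries alone, each of them among the 49. It was 33 to 49 when single low-W libraries were left out, with the fewest without CTRL replicate 9, and 44 to 55 under the other alternatives. Of the 49 called genes, 49 were also called by DESeq2 and 47 without CTRL replicate 1 and KO replicate 8. With a minimum of 5 CPM the median ratio was 1.51 and with 10 CPM 1.53, and as a ratio of medians 1.55. No scaling moved the median of all genes by 0.1 (log2).

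Between KO and CTRL, 0 members passed in each of 20 alternatives. The 18 higher at an unadjusted p under 0.05 became 2 with the W class as a term and 1 in libraries with W counts, where median log2 changes were 0.030 and 0.055. Leaving out single CTRL libraries gave 11 to 39, with medians of 0.18 to 0.32, the highest without CTRL replicate 9. Shares over all genes were not taken for these counts or for those of replicates 1 to 9 given next. Replicates 1 to 9 alone gave 32 with the replicate number as a block and 35 without it. These replicate numbers are those of the sample titles, and for several libraries the sample descriptions carry other numbers. The correlation of libraries with the same title number ran from -0.43 to 0.43, and these numbers were not taken as pairs. Pairing by the numbers in the descriptions was not examined, so the check cannot decide whether libraries were paired. Leaving out CTRL libraries, and replicates 1 to 9 without the block, were alternatives chosen after seeing the data. Low counts limit members under about 5 CPM, whose standard errors were the largest.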
